A study of Mus musculus with 4 samples.

Results

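Classical monocytes were taken as the cells of 4 mouse tumor libraries that carried the message of Csf1r, the receptor for macrophage colony-stimulating factor, together with the monocyte messages Chil3, Plac8 and Vcan, and that lacked the messages of neighbouring cell types. A cell was counted when it had at least 500 detected genes, at most 10% of its unique molecular identifiers (UMIs, which count captured molecules) from mitochondrial genes, at least 2 Csf1r UMIs, at least 5 UMIs summed over Chil3, Plac8 and Vcan, at most 2 UMIs over Ace, Treml4 and Adgre4 of nonclassical monocytes, less than 0.2% of UMIs from C1qa, C1qb and C1qc of macrophages, no Flt3 UMI, at most 2 UMIs over Cd3d, Cd3e and Cd3g of T cells and at most 1 UMI over Ncr1 and Klrb1c of natural killer cells. By this rule 2450 of 28194 cells were classical monocytes. The cells were chosen by their own UMI counts of these genes, so the levels of its genes are a description of the chosen cells and not a finding. Ly6c2, the gene of the usual surface marker of these cells, was not among the genes of the matrices, so its level could not be checked.

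Classical monocytes are made in the bone marrow and enter inflamed tissue and tumors from the blood, for which the chemokine receptor CCR2 is central. In the tissue they turn into macrophages or into antigen-presenting cells that resemble dendritic cells, and in doing so they lose monocyte messages and gain others. Interferon-γ from lymphocytes, together with microbial or danger signals, is known to induce in them inducible nitric oxide synthase, the T cell-attracting chemokines CXCL9 and CXCL10 and the checkpoint ligand PD-L1, whereas the activating and inhibitory Fcγ receptors they carry couple them to antibodies.

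The cells came from subcutaneous MC38 colon carcinomas in B-hCTLA-4 mice, C57BL/6 animals that carry a humanized CTLA-4 gene. Treatment was intraperitoneal, began at about 100 mm3 and comprised 3 doses, and tumors were harvested on day 8. Live CD45+ cells of 11 mice were pooled for each library, fixed and profiled with the 10x Flex probe assay. The 4 groups were a human IgG1 isotype control at 10 mg/kg, the anti-CTLA-4 antibody ipilimumab at 10 mg/kg, an antibody against mouse FcγRII (AT130-2 mIgG1-N297A, which carries an Fc mutation) at 20 mg/kg, and the combination of both. All of these are as in the deposited labels, and the antibody doses other than that of the isotype control, the start size, the day and the number of mice differ in the study's text.

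For the single-antibody libraries the labels contradict each other, since the library titled for anti-CTLA-4 is listed under treatment with anti-FcγRII and the reverse. These libraries are therefore called the library titled anti-CTLA-4 and the library titled anti-FcγRII, and no value is assigned to either antibody alone. The labels of isotype and combination hold no such contradiction. Each group was 1 library, so no difference between groups has a replicate check and no p-value was computed. Intervals cover counting error only, not the spread between mice or libraries. Series of 4 values follow the order isotype, titled anti-CTLA-4, titled anti-FcγRII and combination.

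The libraries held 8173, 6390, 6097 and 7630 cells and 178178393, 129151823, 142472286 and 196362818 UMIs. Classical monocytes numbered 664, 593, 363 and 830 cells. Their median depth was 8888, 9817, 10748 and 11045 UMIs per cell, and their summed UMIs were 6695422, 6956102, 4849760 and 11152100. The median mitochondrial share was 0.488%, 0.501%, 0.612% and 0.351%, lowest in combination. Levels below (CPM) are UMIs summed over the classical monocytes of a library and scaled to a total of 1000000 UMIs. The paper states that samples were hybridized with barcoded probe sets and pooled for loading. Each library held 1 probe barcode, and no complete cell barcode occurred in more than 1 library. The 16-base droplet barcode alone was shared with a cell of another library for 186, 172, 130 and 272 classical monocytes, which is 28.0%, 29.0%, 35.8% and 32.8% of them.

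The chosen cells carried the monocyte messages unevenly. Plac8 was detected in 96.2%, 96.3%, 87.9% and 92.3% of them, Chil3 in 68.8%, 60.9%, 71.6% and 62.4% and Vcan, which encodes the matrix proteoglycan versican, in 37.5%, 38.3%, 45.2% and 32.4%. Cells with Plac8 alone numbered 155, 170, 77 and 235, which is 23.3%, 28.7%, 21.2% and 28.3% of the classical monocytes. In cells without a Chil3 UMI the C-type lectin Cd209a stood at 155, 140.4, 138 and 30.6 CPM, against 0.893, 6.00, 0 and 5.60 CPM in cells with one. The MHC class II gene H2-Ab1 was also higher without Chil3, at 4719, 4568, 3686 and 4657 CPM against 2312, 2253, 1742 and 2949 CPM. Hp, which encodes haptoglobin, was at 129.6, 86.6, 122 and 100.5 CPM without Chil3 and at 419.5, 306, 359.6 and 285 CPM with it. Chil3 is a gene of the rule, so its share says nothing about the name of the cells. In all 4 libraries the cells without it had higher levels of Cd209a and H2-Ab1 and a lower level of Hp. The Cd209a levels rested on few cells, since its UMIs lay in 36, 28, 12 and 23 classical monocytes. Of these UMIs 8.65%, 17.1%, 24.2% and 15.6% lay in 1 cell.

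Other genes of monocytes that the rule did not use were present in each library. Fn1, encoding fibronectin, took 7682, 6469, 7882 and 5570.1 CPM, the lysozyme gene Lyz2 7012, 6289.7, 7089 and 5985 CPM and the coagulation factor XIII gene F13a1 849, 666, 879 and 442 CPM. The rule itself limited Cd3d, Cd3e, Cd3g, Ncr1 and Klrb1c, so low sums of T cell and natural killer markers were partly fixed by it and are no check of the cells. The 7 T cell markers summed to 8.96, 2.30, 3.71 and 8.34 CPM and the 5 natural killer markers to 14.2, 3.88, 2.89 and 6.01 CPM. The 5 B cell markers summed to 151, 76.9, 94.0 and 35.8 CPM, nearly all of it Ighm, the immunoglobulin heavy chain gene.

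A few classical monocytes also held messages of other cells and had very many UMIs. Cells with at least 10 UMIs of fibroblast or tumor genes numbered 7, 5, 7 and 11 and held 7.14%, 9.13%, 15.6% and 11.6% of the UMIs. Cells with at least 20 UMIs over the neutrophil genes S100a8, S100a9, Retnlg, Cxcr2, Mmp9 and G0s2 numbered 5, 1, 6 and 38. They held 4.46%, 0.119%, 6.25% and 9.45% of the UMIs. Together with 2 cells of the combination library that held mast cell genes, these were 9, 6, 9 and 46 cells, or 1.36%, 1.01%, 2.48% and 5.54% of the classical monocytes, with 7.32%, 9.25%, 16.2% and 16.6% of their UMIs. The combination library therefore held the most such cells. Each ratio that they moved by more than 1.5 times is given below also without them.

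The cells on either side of a limit were few, and at some limits they differed. With 5 UMIs over Chil3, Plac8 and Vcan there were 15, 16, 11 and 36 cells inside, and with 4 UMIs there were 26, 27, 18 and 24 cells outside. Ccr2 stood at 1186, 1181, 1260 and 423 CPM in those inside and at 1362, 1094.5, 1683 and 609 CPM in those outside. At this limit Ccr2 was thus higher outside except in the library titled anti-CTLA-4. At a C1q share from 0.15% to 0.2% there were 21, 14, 14 and 40 cells inside, and from 0.2% to 0.25% there were 19, 18, 10 and 34 cells outside. Apoe, a macrophage message, stood at 2633, 1307, 4951 and 2623 CPM in those inside and at 8808, 14089.7, 3703 and 2290 CPM in those outside, so it was higher outside only in isotype and in the library titled anti-CTLA-4. With 2 Csf1r UMIs there were 28, 16, 14 and 24 cells inside, with Ccr2 at 492, 1086, 578 and 51.0 CPM. With 1 Csf1r UMI there were 34, 27, 21 and 38 cells outside, with Ccr2 at 194, 64.6, 16.1 and 40.2 CPM, below the level inside in each library. In combination the 51.0 CPM inside lay far below the 645 CPM of all its classical monocytes.

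Classical monocytes made up the largest share of cells in the combination library and the smallest in the library titled anti-FcγRII. They were 8.15% of isotype cells (exact Clopper-Pearson 95% interval 7.56 to 8.76%), 9.32% in the library titled anti-CTLA-4, 5.97% in the library titled anti-FcγRII and 10.9% in combination (10.2 to 11.6%). The share in combination was 1.34 times that in isotype (95% interval 1.22 to 1.48), 1.17 times that in the library titled anti-CTLA-4 (1.06 to 1.30) and 1.83 times that in the library titled anti-FcγRII (1.63 to 2.06). Among cells with 2 or more Csf1r UMIs the shares were 9.45%, 11.9%, 6.66% and 13.4%, in the same order of libraries. Among the 7111, 5445, 5614 and 6558 cells with at least 5000 UMIs, each thinned to 5000 UMIs so that depth was equal, the shares were 7.99%, 9.39%, 5.61% and 10.2%. Neighbouring classes were defined with the same limits on lymphoid genes and Flt3 and at least 2 Csf1r UMIs. Of these, nonclassical monocytes, with at least 5 UMIs over Ace, Treml4 and Adgre4 and less than 0.2% C1q UMIs, were 5.36%, 4.24%, 2.05% and 2.11% of cells. Cells that met the monocyte limits with a C1q share from 0.2% to 1%, called C1q-intermediate, were 3.84%, 3.52%, 2.60% and 4.96%. Cells with at least 1% C1q UMIs, called C1q-high macrophages, were 34.1%, 39.5%, 53.6% and 28.8%. Cells were sorted for CD45 before loading, so shares refer to the sorted and recovered leukocytes.

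**Figure D1:**
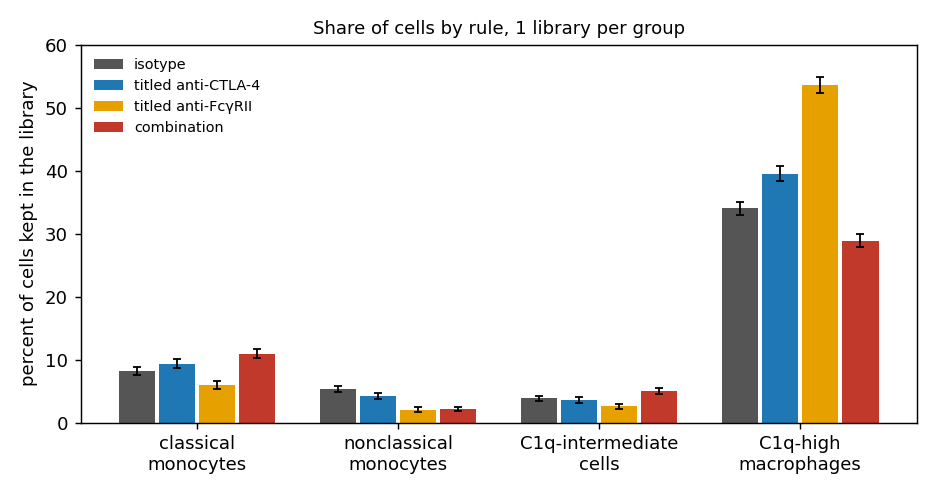
Shares of classical monocytes and of the neighbouring classes among all cells kept, in percent, for each of the 4 libraries, with exact 95% binomial intervals for counting error as bars. Classical monocytes range from 5.97% in the library titled anti-FcγRII to 10.9% in combination, while C1q-high macrophages are lowest in combination at 28.8%.

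Gene levels were compared between libraries for the 7624 genes that reached 20 CPM in classical monocytes of at least 1 library. In combination 203 genes stood at least 2-fold above isotype, which is 2.66% of the genes compared, and 95 stood at least 2-fold below, which is 1.25%. Without the cells that held messages of other cells these counts were 147 and 89, of which 126 and 72 were among the first. At least 1.5-fold above isotype stood 471 genes (6.18%) and at least 1.5-fold below 361 genes (4.74%). The median ratio over all genes was 0.97. Against the library titled anti-CTLA-4, combination had 88 genes at least 2-fold higher (1.15%) and 32 lower (0.42%), and against the library titled anti-FcγRII 118 (1.55%) and 62 (0.813%). The library titled anti-CTLA-4 had 80 genes at least 2-fold above isotype (1.05%) and 30 below (0.393%), and the library titled anti-FcγRII 114 (1.5%) and 9 (0.118%). Summed over the pairs other than combination with isotype, fewer genes passed 2-fold without the cells holding other messages, as given in the closing section. The comparisons with isotype share 1 control library.

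Among 4961 genes with at least 50 CPM, 33 (0.665%) stood in combination at least 2-fold above each of the other 3 libraries, and 9 (0.181%) at least 2-fold below. Without the cells holding other messages 32 and 10 did, 24 and 7 of them the same genes. The secretory protease genes of mast cells, Tpsb2, Mcpt2 and Cma1, headed the higher genes, and of their combination UMIs 99.8%, 99.3% and 99.9% lay in 1 cell. Il1rl1, the interleukin-33 receptor, was 8.30-fold higher with all cells and stood at 0.778 of isotype without the cells holding other messages. The other 11 genes of the first 15 by ratio to isotype stood at least 2-fold above every other library also without those cells, the smallest such ratio being 2.42 for Slc7a11.

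Inhba, which encodes the activin A subunit, stood at 34.7, 86.4, 76.3 and 324 CPM, so that combination was 9.35 (95% interval 8.19 to 10.7) times isotype and 17.2 times without the cells holding other messages. Cd36, a scavenger receptor for lipids, stood at 22.9, 79.9, 38.4 and 211 CPM, a ratio of 9.22 (95% interval 7.82 to 10.9). Cd1d1, which presents lipids to natural killer T cells, stood at 7.62, 30.2, 10.1 and 93.2 CPM, a ratio of 12.2 (95% interval 9.23 to 16.5). In each of these genes the library titled anti-CTLA-4 ranked second and isotype was lowest. Procr, the endothelial protein C receptor, stood at 11.2, 35.2, 9.90 and 87.2 CPM and Cd38, an NAD-consuming ectoenzyme, at 10.9, 31.1, 9.69 and 74.2 CPM. Slc7a11, the cystine and glutamate exchanger that feeds glutathione synthesis, stood at 41.7, 100.1, 61.4 and 241 CPM. The macrophage elastase gene Mmp12 stood at 324, 502, 442 and 1984 CPM, with 7.16% of its combination UMIs in 1 cell. With other choices of the cells the ratio to isotype ranged from 5.98 with a C1q share under 0.5% to 16.8 with a Chil3 UMI only for Cd36 and from 4.37 to 13.1 in the same settings for Mmp12, where it was 6.13 with all cells. That of Inhba reached 20.8 when the rule was applied to thinned cells. These genes encode a cytokine subunit, surface receptors, a transporter and a protease, and their levels in the library titled anti-CTLA-4 lay between isotype and combination in every case. Fth1, the ferritin heavy chain that stores iron, was looked up after its values were seen and stood at 4936, 8065, 6468 and 16099.9 CPM.

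The genes at least 2-fold lower in combination than in every other library included the inducible heat shock proteins. Hspa1b stood at 244, 342, 233 and 39.2 CPM and Hspa1a at 234, 283, 205 and 45.6 CPM, ratios of combination to isotype of 0.161 and 0.195. Cd209a stood at 51.8, 63.1, 46.0 and 14.97 CPM and Gpr183, an oxysterol receptor that guides migration, at 103, 77.2, 77.1 and 36.5 CPM. In both genes the 3 other libraries lay close together and combination apart. Tmem176b stood at 66.8, 72.0, 65.0 and 18.8 CPM, Stxbp6 at 56.3, 37.5, 45.4 and 18.1 CPM and Pdlim1 at 94.5, 72.3, 78.4 and 36.0 CPM. The Fc receptor-like gene Fcrls stood at 33.9, 56.4, 24.7 and 6.37 CPM, with 47.9% of its combination UMIs in 1 cell. Ighm stood at 145, 75.6, 93.8 and 34.9 CPM, and at equal depth it was detected in 33.1%, 22.7%, 28.3% and 11.9% of classical monocytes and in a larger share of T cells, 60.7%, 42.6%, 48.1% and 32.9%.

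Monocyte identity genes had medians below isotype in all 3 other libraries, 0.905 in the library titled anti-CTLA-4, 0.911 in the library titled anti-FcγRII and 0.89 in combination, so the list median did not set combination apart. The median ratio of combination was 0.966 to the first of these libraries and 0.961 to the second, against 0.979 and 0.933 over all genes. Of 29 compared in combination against isotype, 1 was at least 2-fold higher and 2 lower, 4 were at least 1.5-fold higher and 7 lower, and the median ratio over all genes was 0.97. Over all genes compared, 2.66% were at least 2-fold higher and 1.25% lower, and 6.18% and 4.74% at least 1.5-fold. The counts of this and the following lists are to be read beside these shares. Ccr2 (chr9:124101950-124113557, plus strand, GRCm38) stood at 1432, 1079.9, 1229 and 645 CPM, a ratio of 0.451 (95% interval 0.437 to 0.465), with combination lowest and isotype highest. F13a1 stood at 849, 666, 879 and 442 CPM and the interferon-induced membrane protein gene Ifitm6 at 331, 197, 221 and 114 CPM. Ratios of combination to isotype were 0.520 for F13a1 and 0.343 for Ifitm6. Hp was at 0.666, the calcium-binding protein gene S100a4 at 0.606, Fn1 at 0.725 and Lyz2 at 0.854 of isotype. Csf1r, which the rule required, was at 0.914, and the transcription factor gene Spi1 at 0.890. Cd14, the lipopolysaccharide co-receptor, went the other way with 609.7, 857, 754 and 1309 CPM, a ratio of 2.15 (95% interval 2.07 to 2.22). The lectin Clec4e was 1.76-fold and Ly6a 1.70-fold higher. Of the rule's own genes, Plac8 stood at 3538, 3055, 2583 and 2606 CPM, Vcan at 122, 116, 168 and 77.3 CPM and Chil3 at 2098, 1573, 1962 and 2462 CPM.

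Of 16 genes for entry and adhesion, 1 was at least 2-fold higher and 2 lower, and the median ratio was 0.87. The α4 integrin gene Itga4 stood at 151, 105, 97.9 and 70.6 CPM, a ratio of 0.466 (95% interval 0.424 to 0.512). Pecam1, an adhesion molecule used at endothelial junctions, stood at 42.0, 78.9, 52.8 and 97.2 CPM, a ratio of 2.32 (95% interval 2.03 to 2.65). The chemokine receptors Cxcr4 and Ccr1 stood at 0.765 and 1.11 of isotype. Lower levels were therefore found for Ccr2 and Itga4, while Ccr1 stood slightly above isotype.

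Genes of arginine use and itaconate synthesis had the highest list median, 2.42, with 6 of 9 genes at least 2-fold higher in combination and none lower. Nos2 (chr11:78920787-78960254, plus strand), the inducible nitric oxide synthase, stood at 225, 574, 302 and 1476 CPM. The ratio of combination to isotype was 6.56 (95% interval 6.22 to 6.92), or 9.94 when the rule was applied to thinned cells, and the library titled anti-CTLA-4 held the second level. Slc7a2, the inducible arginine transporter, stood at 119, 224, 168 and 548 CPM, a ratio of 4.62 (95% interval 4.29 to 4.98). Slc7a2 and Nos2 thus showed the same order of libraries. Ass1, which rebuilds arginine from citrulline, was 2.17-fold and Acod1, which makes itaconate, 2.42-fold higher. Gch1, needed for the cofactor tetrahydrobiopterin, and Asl, the lyase next to Ass1, stood at 0.992 and 0.989 of isotype. Against the library titled anti-CTLA-4, 2 of the 9 genes were at least 2-fold higher in combination, and against the library titled anti-FcγRII 5.

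**Figure D2:**
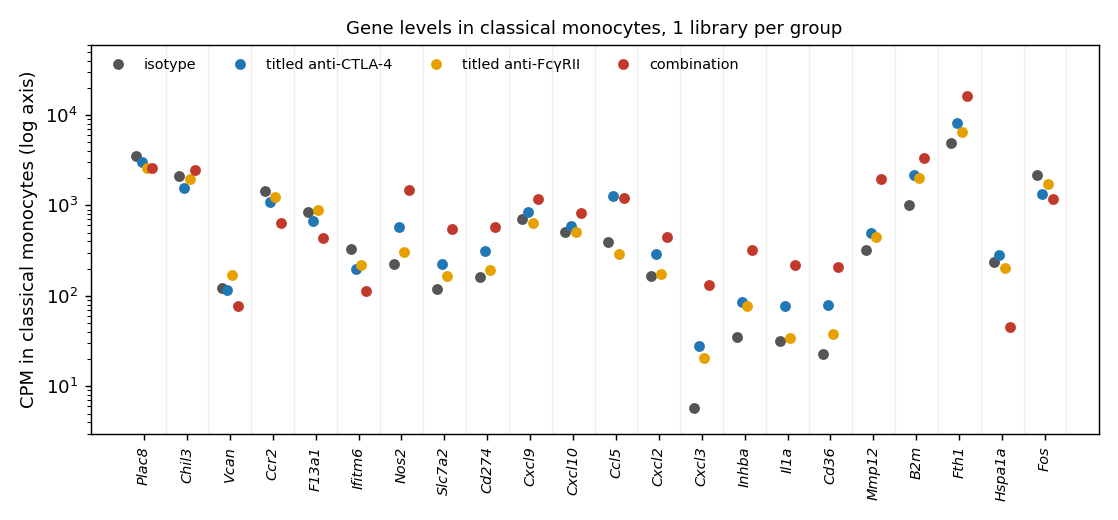
Levels of selected genes in classical monocytes of the 4 libraries, in CPM on a log axis, with 1 point per library. Nos2 ranges from 225 CPM in isotype to 1476 CPM in combination and Ccr2 from 1432 CPM in isotype to 645 CPM in combination.

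Interferon-γ response genes were mostly higher in combination, with a median ratio of 1.41 over 27 genes. At least 2-fold higher were 3, namely Nos2, Cd274 and Socs1, none was at least 2-fold lower, and 12 were at least 1.5-fold higher. Cd274, which encodes PD-L1, stood at 162, 314, 191 and 585 CPM, a ratio of 3.60 (95% interval 3.37 to 3.84). Socs1, the feedback inhibitor of this pathway, stood at 215, 256, 206 and 438 CPM, and the CXCR3 ligand genes Cxcl9 and Cxcl10 at 705, 853, 639.8 and 1178 CPM and 509, 588, 513 and 818 CPM. Combination was highest in each of these genes, and the other 3 libraries lay closer together in Socs1, Cxcl9 and Cxcl10. The interferon-induced GTPases Gbp4, Gbp5, Tgtp1 and Iigp1 were 1.65, 1.58, 1.70 and 1.89-fold higher, and Gbp2 1.25-fold. The transcription factor gene Irf1 was at 1.46 and Ciita, the class II transactivator, at 0.816 of isotype. The list's median against isotype was 1.04 in the library titled anti-CTLA-4 and 0.884 in the library titled anti-FcγRII.

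Type I interferon response genes were nearer the level of isotype. Of 24 compared, none was at least 2-fold apart, and the median ratio was 1.06. The 2 that were at least 1.5-fold higher were Ifi205 (1.54) and the oligoadenylate synthetase-like gene Oasl1 (1.51). Isg15, a ubiquitin-like modifier, stood at 516, 609, 457 and 713 CPM and Oas2 at 0.841 of isotype.

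The class I presentation list was higher throughout, with all 13 genes above isotype (12 without the cells holding other messages) and a median of 1.35. B2m, the light chain of MHC class I, stood at 1018, 2179.7, 2002 and 3318 CPM, a ratio of 3.26 (95% interval 3.17 to 3.34). H2-Q7 was 2.53-fold and H2-K1 1.71-fold higher, the peptide transporter gene Tap1 1.37-fold and the immunoproteasome gene Psmb8 1.13-fold. B2m was lowest in isotype also in the other classes, with combination 2.83-fold higher in nonclassical monocytes, 3.10-fold in C1q-high macrophages and 2.30-fold in T cells. Of the 9 class II presentation genes none was 1.5-fold apart and the median ratio was 1.03. H2-Ab1 stood at 3108, 3237, 2389 and 3591 CPM and the invariant chain gene Cd74 at 8171, 8699, 6411 and 9711 CPM.

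**Figure D3:**
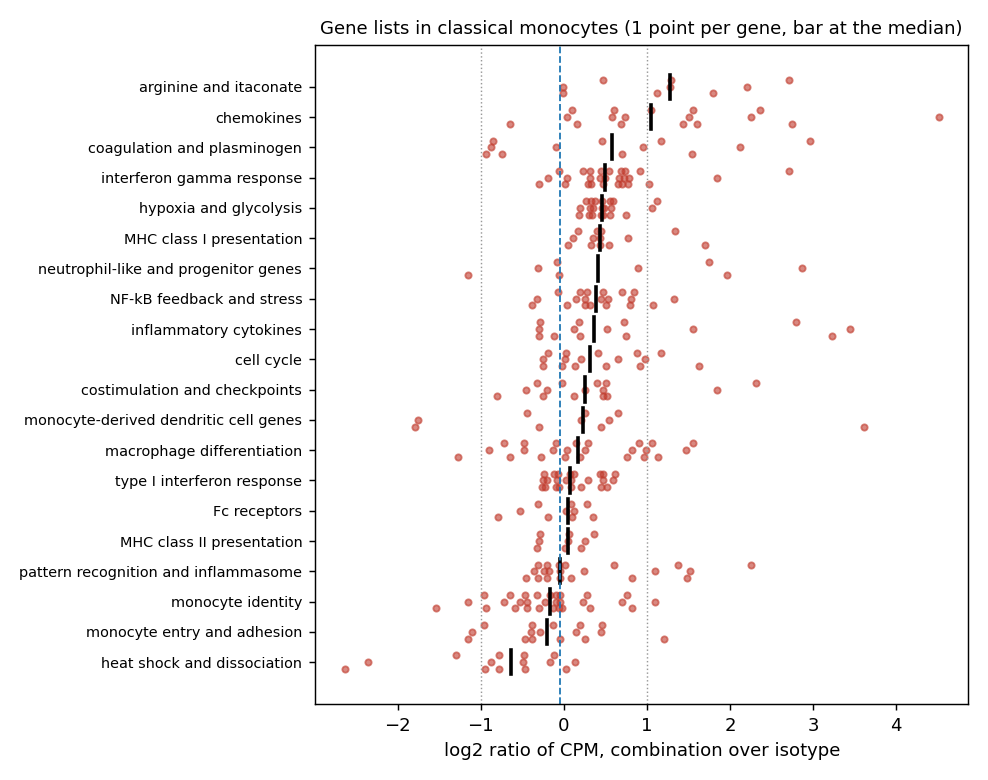
Ratio of combination to isotype in classical monocytes for each compared gene of the 20 function lists, on a log2 axis, with 1 point per gene and a bar at the list's median. The arginine and itaconate list has the highest median at 2.42, the heat shock and dissociation list the lowest at 0.65, the dashed line marks the median of all genes compared (a ratio of 0.97) and the dotted lines mark 2-fold.

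Chemokine genes had a list median of 2.06, with 9 of 17 genes at least 2-fold higher and none at least 2-fold lower. Over all genes compared these shares were 2.66% and 1.25%. Cxcl3, a neutrophil attractant, stood at 5.82, 27.9, 20.4 and 133 CPM, and combination was 22.8 (95% interval 16.6 to 32.3) times isotype, from 13.5 as a mean over cells to 32.1 with a Chil3 UMI only. Cxcl2, which acts through the same receptor, stood at 165, 289, 173 and 445 CPM, a ratio of 2.70 (95% interval 2.53 to 2.88). Ccl5, a T cell attractant, stood at 397, 1277, 292 and 1209.8 CPM. Unlike the CXC genes, Ccl5 was about as high in the library titled anti-CTLA-4 as in combination. So was the CCR4 ligand gene Ccl17 with 14.0, 80.6, 12.6 and 94.3 CPM, and the eotaxin gene Ccl24 stood at 46.0, 322, 105 and 237 CPM. Its UMIs lay in 38, 60, 15 and 94 cells, and 37.0%, 18.3%, 47.9% and 15.1% of them lay in 1 cell. Ccl22 was 4.78-fold above isotype in combination and Pf4, platelet factor 4, 2.93-fold. Ccl2, Ccl3 and Ccl4 stood at 1.49, 2.06 and 2.84 of isotype with all cells and at 0.898, 0.850 and 1.17 without the cells holding other messages. Ccl3 and Ccl4 thus counted among the 9 only where the cells holding other messages were kept. The related gene Ccl12 was at 0.640. Without those cells the list's median was 1.65.

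The promoters of 3 of these chemokines and of B2m are shown because the windows hold motifs of interferon or NF-κB factors, from 250 bases before the start of the gene to 50 after it (RefSeq, GRCm38.p6, strand of the gene). Capitals mark matches on either strand to an ISRE-type motif (GAAA, any 2 bases and GAAA again) or a κB-type motif, GGGANNTCC.
Cxcl9 (chr5:92328030-92328329, minus strand): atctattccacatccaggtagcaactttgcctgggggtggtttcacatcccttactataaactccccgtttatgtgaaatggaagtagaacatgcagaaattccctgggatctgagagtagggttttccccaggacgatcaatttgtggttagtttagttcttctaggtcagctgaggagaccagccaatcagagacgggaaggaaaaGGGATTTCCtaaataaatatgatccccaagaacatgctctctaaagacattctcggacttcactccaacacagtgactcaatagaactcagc
Cxcl10 (chr5:92348840-92349139, minus strand): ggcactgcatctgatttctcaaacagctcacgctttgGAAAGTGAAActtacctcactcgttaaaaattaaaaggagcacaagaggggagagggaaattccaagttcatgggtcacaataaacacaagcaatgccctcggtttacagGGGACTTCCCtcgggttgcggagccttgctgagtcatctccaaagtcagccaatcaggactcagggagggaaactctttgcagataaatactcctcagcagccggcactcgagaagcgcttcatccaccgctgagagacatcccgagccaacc
Cxcl2 (chr5:90903649-90903948, plus strand): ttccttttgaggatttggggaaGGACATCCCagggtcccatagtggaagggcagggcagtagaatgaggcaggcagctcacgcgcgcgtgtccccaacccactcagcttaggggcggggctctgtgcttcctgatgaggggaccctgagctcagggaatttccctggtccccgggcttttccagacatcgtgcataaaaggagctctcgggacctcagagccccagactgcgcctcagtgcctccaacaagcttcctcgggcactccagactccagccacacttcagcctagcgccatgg
B2m (chr2:122147437-122147736, plus strand): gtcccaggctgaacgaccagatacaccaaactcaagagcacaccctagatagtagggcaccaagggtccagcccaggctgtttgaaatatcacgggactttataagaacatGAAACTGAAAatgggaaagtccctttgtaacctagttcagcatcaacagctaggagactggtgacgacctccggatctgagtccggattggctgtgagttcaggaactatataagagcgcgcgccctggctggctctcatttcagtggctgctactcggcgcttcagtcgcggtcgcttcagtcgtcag
The κB-type match of Cxcl9 began 42 bases before the start and that of Cxcl2 228 bases before it. Cxcl10 held an ISRE-type match 213 bases before the start and a pair of overlapping κB-type matches at 103 and 102 bases, and B2m an ISRE-type match at 139 bases. The GAS-type motif TTCNNNGAA was searched as well and was in none of these 4 windows. Of the genes at least 2-fold higher in combination, 154 of 203 had a window, and 10.4%, 6.49% and 7.14% of these held a GAS, an ISRE-type and a κB-type match. Over the compared genes with a window (6153 of 7624) the shares were 8.19%, 4.31% and 7.17%, and over all 27025 windows 9.55%, 3.99% and 4.94%. Of the genes at least 2-fold lower, 77 of 95 had a window and the shares were 10.4%, 5.19% and 3.90%. Only these spellings were searched, so an unmarked stretch may hold a site of another spelling or length. Matches are a description of the letters and not of binding.

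Of 14 compared genes for inflammatory cytokines, 4 were at least 2-fold higher, none lower, and the median ratio was 1.29. The interleukin-1 family accounted for 3 of the 4. Il1a stood at 31.8, 77.6, 34.4 and 221 CPM and the gene of the receptor antagonist, Il1rn, at 390.3, 706, 602 and 1143 CPM, ratios of 6.94 (95% interval 6.03 to 8.02) and 2.93 (95% interval 2.81 to 3.06). Il1f9, which encodes interleukin-36γ, stood at 1.94, 1.01, 2.06 and 21.1 CPM and, without the cells holding other messages, at 0.483, 1.11, 0 and 6.66 CPM, below the 20 CPM used for comparison. Il1b stood at 1024, 1265, 874 and 1695 CPM, a ratio of 1.65 (95% interval 1.61 to 1.70). The 4 members thus had their highest level in combination, the agonists and the antagonist alike. Tnf stood at 102, 113, 91.3 and 111 CPM, a ratio of 1.09 (95% interval 0.993 to 1.199), and the angiogenic factor Vegfa was 1.68-fold higher.

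NF-κB feedback and stress genes had a median of 1.31 over 20 genes, with 2 at least 2-fold higher. These were Sod2, the mitochondrial superoxide dismutase, at 319.8, 450.3, 348 and 803 CPM and the signalling adaptor Traf1 at 45.7, 81.4, 43.1 and 96.1 CPM. The inhibitor genes Nfkbia and Tnfaip3 were 1.75 and 1.44-fold and the cyclooxygenase gene Ptgs2 1.73-fold higher. Among 21 pattern recognition and inflammasome genes 5 were at least 2-fold higher and none lower, with a median of 0.97. The 5 were surface receptors, namely Cd14, the formyl peptide receptors Fpr1 (4.78) and Fpr2 (2.87), and the C-type lectins Clec4n (2.79) and Clec4d (2.59). Fpr1 stood at 17.3, 38.4, 20.6 and 82.8 CPM and Clec4n at 337, 487, 444 and 940.5 CPM. The endosomal Tlr7 and the inflammasome genes Aim2 and Casp1 were at 0.782, 0.871 and 0.873 of isotype.

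Fc receptor genes were at similar levels in the 4 libraries. Fcgr2b, the inhibitory Fcγ receptor, stood at 1057, 1192, 1075 and 1344 CPM, a ratio of combination to isotype of 1.27 (95% interval 1.24 to 1.31). Fcgr4, an activating receptor for IgG2, stood at 450.2, 442, 365 and 544 CPM, a ratio of 1.21 (95% interval 1.16 to 1.26), Fcgr3 at 1.06 and the high-affinity Fcgr1 at 0.879 of isotype. Of the 10 genes none was 2-fold apart and 1, the neonatal receptor gene Fcgrt at 0.576, was at least 1.5-fold lower. The median was 1.04. The inhibitory phosphatase gene Inpp5d, which acts downstream of the inhibitory receptor, was at 0.691.

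Costimulation and checkpoint genes had a median of 1.19 over 15 genes, with both PD-1 ligands the only ones at least 2-fold higher and none at least 2-fold lower. Pdcd1lg2, which encodes PD-L2, stood at 18.5, 52.9, 23.3 and 92.3 CPM, a ratio of 4.98 (95% interval 4.13 to 6.05). Cd80, Cd86 and Cd40 were at 1.39, 1.19 and 1.42 of isotype, and Icosl, the ICOS ligand, at 0.575.

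All 21 compared genes of hypoxia and glycolysis stood above isotype in combination, with a median of 1.37, and all 21 did so in the library titled anti-CTLA-4 as well, with a median of 1.33. Combination stood above the latter library in 11 of the 21, with a median ratio of 1.00 to it. At least 2-fold higher were Egln3, an oxygen-sensing hydroxylase (2.17), and the lipid droplet gene Hilpda (2.09). The glucose transporter gene Slc2a1 stood at 493, 752, 464 and 692 CPM and Ldha, lactate dehydrogenase, at 844, 1142, 966 and 1163 CPM. The ratios of most members were thus moderate, 4 of 21 reaching 1.5-fold.

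Macrophage differentiation genes diverged among themselves. Of 24 compared, 4 were at least 2-fold higher and 1 lower, and 9 and 4 were at least 1.5-fold apart, with a median of 1.13. Higher in combination were Gpnmb, a glycoprotein of lipid-laden macrophages (2.77), the haem oxygenase gene Hmox1 with 430.3, 703, 527 and 944 CPM, and the lipase gene Lpl (1.98). Lower were Apoe, apolipoprotein E, with 2531, 2303, 2735 and 1361 CPM and the selenium carrier Selenop with 429.7, 287, 359 and 177 CPM. The adhesion gene Vcam1 was 2.09-fold higher with all cells and 9.78-fold without those holding other messages. The C1q genes, limited by the rule, stood at 1.22, 1.19 and 1.15 of isotype for C1qa, C1qb and C1qc.

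Among 10 genes of monocyte-derived dendritic cells, Cd1d1 was at least 2-fold higher, and Cd209a and the peptidase gene Dpp4 (0.297) were at least 2-fold lower. In cells without Chil3, where Cd209a was found, it stood at 155, 140.4, 138 and 30.6 CPM in the 4 libraries, lowest in combination as well. Of 12 coagulation and plasminogen genes 4 were at least 2-fold higher and none lower. Among them were Procr, factor VII (F7, 4.34) and tissue factor (F3, 2.25), whereas the plasminogen activator gene Plau was at 0.554 and F5 at 0.545.

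Among 8 neutrophil-like and progenitor genes, S100a8 and S100a9, the calprotectin subunits of granulocytes, stood at 23.2, 35.2, 59.4 and 169 CPM and 22.4, 2.01, 20.2 and 75.0 CPM. Their ratios of combination to isotype were 7.29 and 3.35 with all cells and 3.97 and 1.85 without the cells holding other messages. Both genes were among those by which these cells were chosen, so lower levels without them were partly fixed by that choice. Slpi, a leukocyte protease inhibitor, was 3.90-fold higher and Cd177, a surface protein of neutrophils and some monocytes, at 0.449. The 10 neutrophil markers summed to 340.1, 247, 311 and 547 CPM, while Ngp was at 0 in every library. In combination S100a8 and S100a9 took 169 and 75.0 CPM of this sum. The part of neutrophils in the S100a8 level was not tested. Of 16 cell cycle genes 2 were at least 2-fold higher with all cells and the median was 1.24, whereas it was 0.575 without the cells holding other messages. The ubiquitin-conjugating enzyme gene Ube2c, for example, was at 3.09 with all cells and at 0.636 without them.

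Heat shock and dissociation genes had the lowest list median, 0.65 over 14 genes, with 3 at least 2-fold lower, 7 at least 1.5-fold lower and none higher. Beside Hspa1a and Hspa1b this was Egr1, an immediate early transcription factor, with 218, 154, 203 and 88.9 CPM. Fos stood at 2147, 1347, 1728 and 1168 CPM, a ratio of 0.544 (95% interval 0.532 to 0.557). The constitutive chaperone gene Hspa8 was at 1.01. Hspa1a was lower in combination in other classes too, at 0.281 of isotype in nonclassical monocytes, 0.178 in C1q-high macrophages and 0.546 in T cells. The handling of the 4 tissue pools was not analysed here, and each was deposited as 1 library.

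Of the 301 genes compared in the 20 function lists, 47 (15.6%) were at least 2-fold higher in combination than isotype and 10 (3.32%) lower, against 2.66% and 1.25% of all genes compared. The lists were chosen with earlier results of these data known, so this is a description. In isotype, 6 of the 4961 genes (0.121%) stood at least 1.5-fold above every other library, among them Cd177 with 92.9, 57.4, 53.2 and 41.7 CPM, the exchange factor gene Fgd2 with 62.3, 38.2, 39.8 and 23.4 CPM and Cyp27a1, a sterol hydroxylase, with 67.1, 36.7, 43.1 and 28.2 CPM. Rnd3, a small GTPase gene, stood at 96.3, 58.9, 61.9 and 41.3 CPM. Combination was the lowest library in these 4 genes. In the chemokine gene Ccl12, with 80.8, 48.3, 47.2 and 51.7 CPM, it stood above both single-antibody libraries. At least 1.5-fold below every other library were 36 genes (0.726%) in isotype, including Cxcl3 and Ccl24 among those with the largest ratio, as well as Ube2c, Cd34 and Asns. Without the cells holding other messages 5 of the 6 and 15 of the 36 genes kept the 1.5-fold distance and 50 CPM in a library. The 1 of the 6 that did not was Cyp27a1, at 71.9, 39.9, 50.4 and 32.2 CPM. Cxcl3 and Ccl24 were among these 15, whereas Ube2c then stood at 6.93, 8.71, 12.5 and 4.41 CPM, Cd34 at 7.73, 9.82, 5.41 and 3.55 CPM and Asns at 7.57, 6.81, 9.84 and 5.48 CPM.

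Genes that set 1 of the single-antibody libraries apart were counted in the same way. In the library titled anti-CTLA-4, 4 genes (0.0806%) stood at least 1.5-fold above the others and 14 (0.282%) below. Ppp1r3b, which targets phosphatase to glycogen, stood at 88.9, 149, 83.3 and 88.5 CPM, and the other 3 were Krt19, all of whose UMIs in that library lay in 1 cell, Fcrls and Ube2c. Without the cells holding other messages, 2 of the 4 genes, Ppp1r3b and Fcrls, kept this distance and 50 CPM in a library. The lower genes were led by Mmp9, S100a9, Gng11, Col6a1 and Col6a2, the last 2 of them collagen genes of fibroblasts. None of these 5 reached 50 CPM in any library without the cells holding other messages, where Col6a1 was at 1.13, 2.06, 1.48 and 0.860 CPM and Mmp9 at 5.80, 0.950, 6.89 and 4.62 CPM. Mmp9 and S100a9 were among the genes by which those cells were chosen, so their lower levels without them were partly fixed. Of the 14 genes only Sem1, a proteasome subunit gene named here after its values were seen, then met both limits. In the library titled anti-FcγRII, 9 genes (0.181%) stood above and 5 (0.101%) below. Nr4a3, an immediate early nuclear receptor, led with 11.6, 17.4, 87.0 and 13.2 CPM, of which 75.8% lay in 1 cell, followed by Htra1, Sox9, Plod2 and Angptl2. Of the 9 genes only Nr4a3 met both limits without the cells holding other messages, where Htra1 was at 1.61, 4.12, 2.71 and 2.04 CPM and Angptl2, at 13.2, 8.87, 6.89 and 5.27 CPM, was highest in isotype. Lower in that library were the collagenase Mmp13 with 37.9, 34.2, 7.22 and 119.5 CPM, Slco3a1 with 100.2, 101, 62.3 and 144 CPM, Jaml, an adhesion molecule of leukocytes, with 60.6, 45.3, 29.3 and 79.2 CPM, Serpina3g and Vps18, of which Mmp13, Jaml and Vps18 met them without those cells.

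Levels summed over cells can come from more cells or from more message per cell, so the share of cells with a UMI was computed as the mean over random thinning of each cell to 5583 UMIs, leaving 564, 539, 332 and 770 cells and leaving out 100, 54, 31 and 60 shallower ones. Nos2 was then found in 13.6%, 28.1%, 16.3% and 56.6% of classical monocytes, with intervals of 10.9 to 16.8% in isotype and 53.0 to 60.2% in combination. Without thinning the shares were 16.7%, 31.2%, 19.6% and 62.0%. In T cells (at least 3 UMIs over Cd3d, Cd3e and Cd3g and no Csf1r UMI), which should lack it, Nos2 was found in 0.879%, 1.53%, 2.74% and 13.5% of the 69, 247, 60 and 159 cells deep enough for the same thinning, out of T cells with median depths of 3885, 4959, 4410.5 and 5272 UMIs. The share in T cells was highest in combination as well, and it lay below that of classical monocytes in each library. Slc7a2 was found in 20.7%, 32.2%, 25.7% and 53.9% and Cd274 in 35.2%, 50.6%, 38.2% and 75.4% of thinned cells. The order of libraries was the same for both genes as for Nos2. Thinned T cells held Slc7a2 in 1.15%, 0.987%, 0.650% and 2.95% and Cd274, which T cells themselves express, in 42.8%, 33.3%, 38.8% and 40.6%. Inhba was found in 3.29%, 8.30%, 5.46% and 26.5%, Cxcl9 in 30.6%, 38.5%, 29.9% and 58.3% and Cxcl3 in 0.648%, 3.00%, 2.63% and 12.4%. In T cells the highest shares were 2.36% for Inhba, 27.7% for Cxcl9 and 4.50% for Cxcl3, each in combination, and each library's share lay below that of its classical monocytes. Ccr2 was found in 95.3%, 90.4%, 93.9% and 78.1%, Ifitm6 in 46.4%, 37.0%, 40.5% and 23.5% and Hspa1a in 20.2%, 17.3%, 21.7% and 11.6%, in each case in the fewest cells of combination. In T cells Ccr2 was found in 48.9%, 35.4%, 31.7% and 41.8%, Ifitm6 in at most 0.978% and Hspa1a in at most 4.18%.

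**Figure D4:**
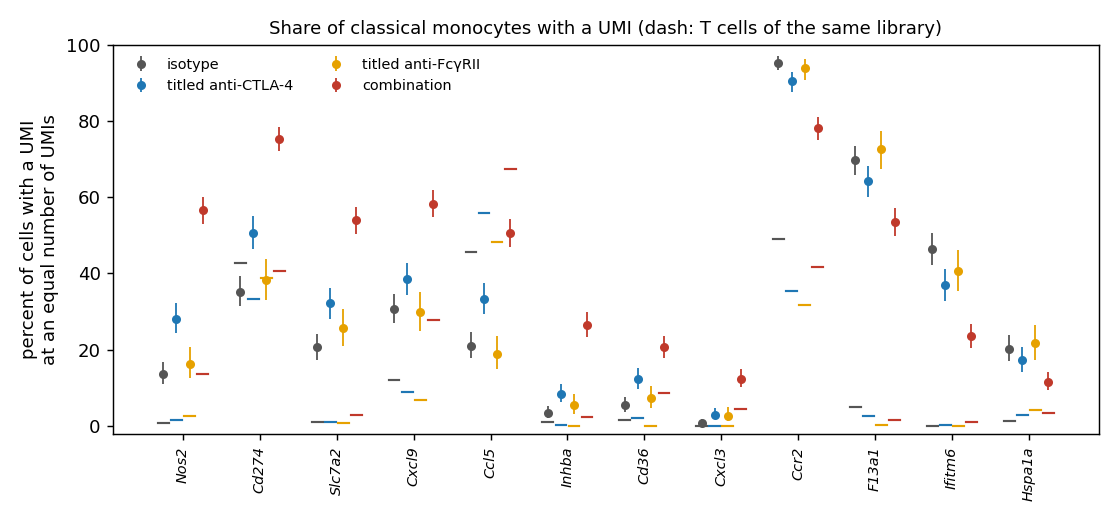
Percent of classical monocytes with at least 1 UMI of each gene after thinning each cell to 5583 UMIs, by library, with exact 95% binomial intervals for counting error and a dash for thinned T cells of the same library. Nos2 is found in 13.6% of isotype and 56.6% of combination cells, and Ccr2 in 95.3% and 78.1%.

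Cells with 3 or more Nos2 UMIs numbered 73, 141, 52 and 434, which is 11.0%, 23.8%, 14.3% and 52.3% of the classical monocytes. Inhba stood at 117, 239, 184 and 485 CPM in them and at 14.3, 26.5, 41.6 and 94.4 CPM in cells without Nos2. Slc7a2 stood at 415, 515, 492 and 785 CPM against 65.8, 106, 76.2 and 249 CPM and Ccr2 at 827, 633, 701 and 510.4 CPM against 1571, 1236, 1385 and 854 CPM. Cells with Nos2 therefore had more Slc7a2 and Inhba and less Ccr2 within each library. The level of Cd274 differed between libraries also among cells without a Nos2 UMI, at 120.1, 177, 132 and 359 CPM, and so did Hspa1a at 224, 305, 166 and 28.4 CPM. Cells were split here by their measured values, and a cell with more UMIs passes 3 Nos2 UMIs more easily, so these values are a description.

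The neighbouring classes shared many of these contrasts between combination and isotype. Nos2 was 6.56-fold higher in classical monocytes, 19.8-fold in nonclassical monocytes, 8.88-fold in C1q-intermediate cells and 9.25-fold in C1q-high macrophages. It was also 10.9-fold higher in T cells, at 3.94, 2.81, 3.84 and 43.0 CPM. Ccr2 was at 0.451, 0.495, 0.424 and 0.323 of isotype in these classes, and Cd274 was 3.60, 4.19, 3.48 and 3.33-fold higher. The ratios differed more for other genes. F13a1 was at 0.520 in classical and 0.963 in nonclassical monocytes, and Cd36 was 9.22 and 1.69-fold higher. Mmp12 was 6.13-fold higher in classical monocytes, 18.1-fold in nonclassical monocytes and 1.78-fold in C1q-high macrophages. Markers of other cells also differed between the libraries in these classes. The median ratio of combination to isotype of the 4 fibroblast or tumor markers was 1.82 in classical monocytes, 10.8 in nonclassical monocytes, 3.15 in C1q-intermediate cells and 0.483 in C1q-high macrophages, and that of the 4 neutrophil markers 2.15, 4.47, 6.48 and 1.91. The cells holding other messages took 1.82% of the UMIs of nonclassical monocytes in isotype and 26.3% in combination. Without such cells, an alternative chosen after seeing the data, Nos2 was 7.13, 19.2, 9.07 and 8.95-fold higher in these 4 classes and Mmp12 5.96, 21.2, 2.83 and 1.68-fold. In nonclassical monocytes Ccr2 was then at 0.571, Cd274 at 3.5, Cd36 at 1.35 and F13a1 at 1.2 of isotype, so that the direction of F13a1 turned. The C1q classes shared the direction of classical monocytes in both F13a1 and Cd36. Without such cells F13a1 was at 0.553 in classical monocytes, 0.600 in C1q-intermediate cells and 0.432 in C1q-high macrophages. Cd36 was 8.59, 4.61 and 4.31-fold higher in the same classes. The interferon-γ list, with all cells, had medians of 1.41, 1.84, 1.48 and 2.11 in classical monocytes, nonclassical monocytes, C1q-intermediate cells and C1q-high macrophages. With 1 library per group no test of a difference between classes was possible.

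**Figure D5:**
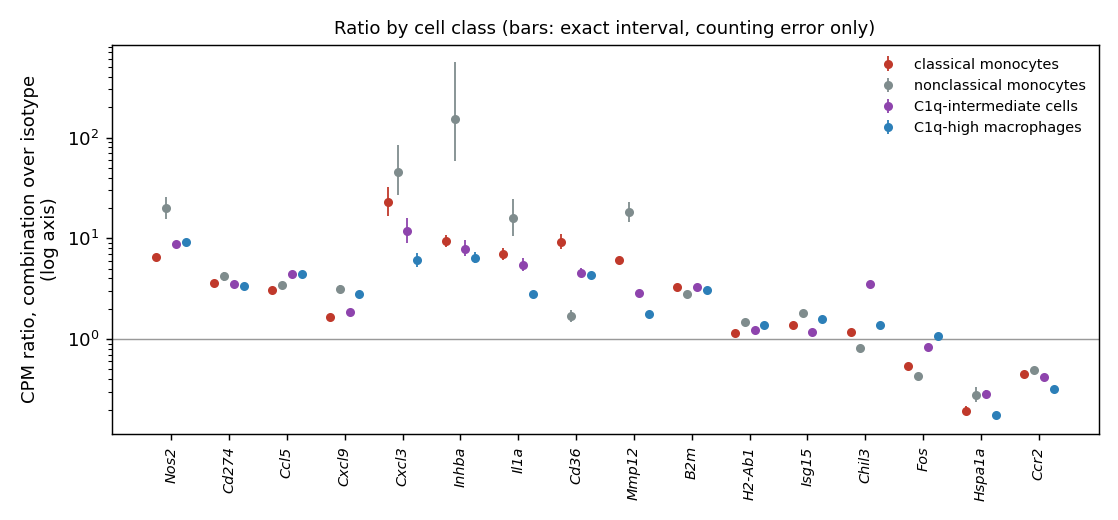
Ratio of combination to isotype on a log axis for selected genes in classical monocytes, nonclassical monocytes, C1q-intermediate cells and C1q-high macrophages, with exact 95% counting intervals. Nos2 lies above 6 and Ccr2 below 0.5 in all 4 classes, while Cd36 is 9.22 in classical and 1.69 in nonclassical monocytes.

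Set beside these classes, and leaving out the cells with messages of other cells, classical monocytes had 124 genes at least 2-fold higher than nonclassical monocytes in all 4 libraries and 134 lower. Ccl24 was 6.36, 9.90, 26.2 and 16.01-fold higher in the 4 libraries, though in the library titled anti-FcγRII 47.9% of its UMIs in classical monocytes lay in 1 cell. Ccl24, Ccl17, the interleukin-7 receptor gene Il7r, Nos2 and the ectonucleotidase gene Nt5e were among the 10 with the largest smallest ratio. Lower were S1pr5, a sphingosine phosphate receptor, Slc12a2, Cd300e, Lilra5 and Spn, beside Ace, Adgre4 and Treml4, which the rule used. Fewest genes stood apart from C1q-intermediate cells, 17 higher and 15 lower. Hp was 5.10, 5.84, 4.72 and 3.19-fold higher than in these, and Cd177, Ifitm6 and the nuclear receptor gene Nr4a1 were higher too, whereas Cd81, Cd72, Ms4a7 and Cd63 were lower. Against C1q-high macrophages 208 genes were higher and 234 lower. The higher genes included Cd177, Hp, Slpi and Itga1, beside Plac8, Vcan and Chil3 of the rule, and the lower ones included Gas6, the ligand of the TAM receptors, the folate receptor gene Folr2 and the prostaglandin synthase gene Hpgds. Cells were assigned to classes by their own messages, so these genes describe the classes and were not tested.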

How the data were processed

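UMI counts per gene and cell, which the authors deposited as 1 filtered 10x matrix per library, were used as raw counts. The matrix header names Cell Ranger 7.2.0, the submitters' processing notes Cell Ranger 7.0.0 and build mm10. The study's doublet removal and clustering were not used, and no cell annotation was used here. Coordinates came from GENCODE (GRCm38), which held 19048 of the 19059 gene IDs. The cells, gene lists and rules were chosen with earlier results of these data known. Counts were summed over classical monocytes per library and expressed as CPM. Genes were compared where any library reached 20 CPM, levels under 3 UMIs were set to 3 UMIs in ratios, no fold was given where both libraries were at or under 3 UMIs, and intervals were exact conditional intervals at 95%. Genes were named by a rule: the genes of the cell rule, the leading genes at 50 CPM or more of each library against the other 3, the extreme and central members of each list, and the leading genes against neighbouring classes. Some genes, and 1 alternative that needs one of them, are not reported here. With 1 library per group no test was run. Doublets were limited by the rule, and Scrublet scores (scanpy 1.11.5) and cells with markers of other cells served as alternatives. Other tools were Python 3.11.15, NumPy 2.4.6, SciPy 1.17.1, pandas 2.3.3 and matplotlib 3.10.9. The counting steps were tested on simulated data.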

Additional observations from a re-analysis of the deposited data

How the results depend on the processing

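The ratio of the share of classical monocytes in combination to isotype stayed between 1.28 and 1.42 over 10 alternatives. Against 203 genes higher and 95 lower in combination than isotype, the counts were 444 and 194 at a minimum of 5 CPM, 72 and 29 at 100 CPM, 471 and 361 at 1.5-fold and 74 and 17 at 3-fold. Genes past 2-fold in the other 4 pairs of libraries, summed in both directions, were 533, and 1003 with at least 4 Csf1r UMIs, 355 without the cells holding markers of other cells, 354 as a mean over cells, 1552 at 5 CPM, 160 at 100 CPM, 1827 at 1.5-fold and 172 at 3-fold. List genes at least 2-fold higher were 47, and 28 at 100 CPM, 83 at 1.5-fold and 22 at 3-fold. The ratio of Nos2 shares was 4.15 with 1 UMI and 5.33 with 3 UMIs. The higher genes were 68.1% of those past 2-fold, 58.3% with at least 4 Csf1r UMIs, 78.3% with a Chil3 UMI only and 81.3% at 3-fold. The median log2 ratio over all genes was -0.04 and ranged from -0.11 to 0.01. Of the gene ratios followed, those that moved by over 1.5 times were Cd36 at 9.22 (5.98 to 16.8), Cxcl3 at 22.8 (13.5 to 32.1), Inhba at 9.35 (8.38 to 20.8), Mmp12 at 6.13 (4.37 to 13.1), Nos2 at 6.56 (6.56 to 9.94) and S100a8 at 7.29 (3.97 to 9.64). That of Chil3 ranged from 1.003 with C1q under 0.1% of UMIs to 1.38 with C1q under 0.5% of UMIs. The list medians that crossed 1 were those of cell cycle (0.575 to 1.67), monocyte-derived dendritic cell genes (0.775 to 1.52), coagulation (0.940 to 1.62), macrophage differentiation (0.928 to 1.25), pattern recognition (0.964 to 1.05), type I interferon (0.975 to 1.10), MHC class II (0.9902 to 1.14) and Fc receptors (0.970 to 1.08). The causes were not tested. The alternatives on cells with markers of other cells, on Chil3 and on each gene's highest cell were chosen after seeing the data. No paired analysis was possible because each group was 1 library. A gene below 20 CPM in every library was not compared, and differences between mice could not be separated from differences between libraries.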
